A study of Mus musculus with 16 samples.

Results

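Whole ovary was compared with whole kidney in mice given no drug, from the 8 vehicle libraries (4 of ovary, 4 of kidney) of a series of 16. The libraries were taken by their labels, tissue and vehicle treatment, and by no measured value. Earlier results of these data were known, however, when the comparison, its lists and its markers were chosen. The mice were wild-type CBAF1 females aged 21 days. They received 5% DMSO in saline into the peritoneum every 12 h for 4 days, with 5 IU of PMSG for 48 h and then 5 IU of hCG, and tissue was taken 13 h after hCG. Both gonadotrophins therefore reached the donors of ovary and kidney alike, and no unstimulated organ was analysed here. The other 8 libraries came from mice given 7.5 mg/kg PT-2385, an inhibitor of the hypoxia-inducible factor HIF-2α, on the same schedule; they serve here only as a repeat of the organ comparison. Ovary RNA was isolated on Monarch columns and kidney RNA with Trizol, so the organ and the isolation method cannot be told apart, and the text rests on large differences and on genes of known cell types. Whether each library stands for its own mouse is not stated, so p-values here measure the spread among libraries, which may be technical.

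PMSG acts as follicle-stimulating hormone and drives follicles to grow; hCG acts as luteinizing hormone (LH) and starts ovulation. Follicles hold an oocyte, granulosa and cumulus cells around it and steroid-making theca cells outside, and after ovulation the follicle wall becomes the progesterone-making corpus luteum. The kidney is built of nephrons: podocytes filter blood, the proximal tubule takes back sugar, phosphate, amino acids and protein, the thick limb and distal tubule take back salt and calcium, and the collecting duct sets water and acid. Gonad and kidney arise side by side in the embryo and share some regulators, such as Wt1.

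Promoter sequences are shown for 3 genes with large organ differences described below. Amhr2 and Klk1 were taken because each holds a motif known to be bound by a factor whose gene differs between the organs. Kap was taken because it holds a TATA box. The sequences are the 250 bases before the gene start (RefSeq, GRCm38.p6), 5′ to 3′ on the strand of the gene, with the motif in capitals. The searched letters were CAAGGTCA (bound by SF-1, the product of Nr5a1) and TATAAA, on both strands.
Amhr2 (chr15:102445117-102445366, plus strand): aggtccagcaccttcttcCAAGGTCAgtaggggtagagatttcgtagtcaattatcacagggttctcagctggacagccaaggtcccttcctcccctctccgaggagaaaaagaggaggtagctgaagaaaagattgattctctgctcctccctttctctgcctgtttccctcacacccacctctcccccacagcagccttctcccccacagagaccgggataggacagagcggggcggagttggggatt
Klk1 (chr7:44225110-44225359, plus strand): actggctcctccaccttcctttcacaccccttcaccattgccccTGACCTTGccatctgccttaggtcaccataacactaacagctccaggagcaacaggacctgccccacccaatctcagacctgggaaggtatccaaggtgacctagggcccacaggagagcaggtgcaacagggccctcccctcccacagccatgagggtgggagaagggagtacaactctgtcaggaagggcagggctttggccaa
Kap (chr6:133853668-133853917, minus strand): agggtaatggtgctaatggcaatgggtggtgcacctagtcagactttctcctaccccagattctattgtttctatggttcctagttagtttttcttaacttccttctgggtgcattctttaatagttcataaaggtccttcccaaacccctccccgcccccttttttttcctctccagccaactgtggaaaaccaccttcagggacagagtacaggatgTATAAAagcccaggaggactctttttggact
Amhr2 holds the SF-1 site at -232 from the gene start and Klk1 holds it at -206 on the opposite strand, and Kap holds the TATA box at -31. Over 32851 RefSeq windows of 300 bases (250 before and 50 after the start), the SF-1 site was found in 1.56% and TATAAA in 13.6%. Of 521 named or listed genes with a window, 6 held the SF-1 site; Amhr2, Dhcr7 and Klrb1c were large in ovary, and Ggt1, Klk1 and S100g were large in kidney. A match is a description of letters and no evidence of binding, and factors other than SF-1 that may bind its site were not considered.

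The 8 libraries held 23285083 to 33577065 read pairs assigned to genes, and depth was higher in every ovary library than in every kidney library. Libraries of one organ correlated at 0.987 to 0.993 (ovary) and 0.992 to 0.994 (kidney), and libraries of different organs at 0.674 to 0.703 (Pearson's r of log2 levels across genes, given as a description). Ovary replicate 1 stood apart by a trace of kidney transcripts, so for the kidney-high genes named below that it moved by over 1.5 times, ovary values are given for each library or also without it. Levels are in CPM, the read pairs of a gene relative to all of its library, scaled by the trimmed mean of M-values (TMM), and in TPM, which also divides by exon length, where genes are compared with each other. Differences are log2 ovary minus kidney with the standard error (SE), so positive values are higher in ovary, and a mean with ± gives the SD of 4 libraries. A gene was called at an adjusted p under 0.05 by edgeR's quasi-likelihood test, and a called difference was large when it was at least 4-fold.

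Each of the 8 organ markers separated the libraries of the organs completely, as 77.5% of all genes tested did. Inha, the inhibin alpha subunit made by granulosa cells (chr1:75483721-75487010, plus strand), stood at 851, 871, 931 and 858 CPM in ovary replicates 1 to 4 and 3.93, 4.37, 6.18 and 4.20 CPM in kidney replicates 1 to 4, a log2 difference of 7.56 (SE 0.14, adjusted p 8.85e-14). Cyp11a1, the side-chain cleavage enzyme that opens steroid synthesis (chr9:57921954-57934306, plus strand), stood at 5512, 7590.4, 5103 and 6665 CPM in ovary and 0.164, 1.29, 0.0472 and 0.0815 CPM in kidney (log2 difference 13.88, SE 0.59, adjusted p 8.38e-09). Foxl2, the transcription factor of granulosa identity (chr9:98837341-98840596, plus strand), stood at 90.5, 99.0, 102 and 80.0 CPM in ovary and had no count in any kidney library, which puts it at least 2944-fold higher against 3 counts over the kidney group (adjusted p 7.30e-12). Gdf9 is the growth factor by which the oocyte acts on granulosa cells (chr11:53324126-53328731, plus strand). It stood at 183, 129, 85.2 and 124 CPM in ovary and 0.164, 0.243, 0.0472 and 0.204 CPM in kidney (log2 difference 9.56, SE 0.38, adjusted p 4.46e-09). All 4 ovary libraries were far above all 4 kidney libraries for each of these genes, and kidney replicate 2 was the highest kidney library for Cyp11a1.

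The kidney markers ran the other way, with ovary replicate 1 the highest ovary library for each. Umod, uromodulin of the thick limb (chr7:119061934-119078478, minus strand), stood at 3.69, 0.0301, 0 and 0 CPM in ovary and 1867, 1862, 1417 and 1573 CPM in kidney (log2 difference -10.82, SE 1.12, adjusted p 6.62e-05). Without ovary replicate 1 a single Umod read pair was left in ovary, and the kidney to ovary ratio was 1.69e+05 (95% counting interval 30315 to 6.67e+06). Umod shares 20.5% of its exon length with other annotated genes, and the recorded counting did not use strand. Slc34a1, the phosphate carrier of the proximal tubule (chr13:55546000-55563405, plus strand), stood at 9.79, 0.0904, 0.0855 and 0.0315 CPM in ovary and 3554, 4033, 4306 and 4206 CPM in kidney (log2 difference -10.65, SE 1.54, adjusted p 0.000505; -15.70 without ovary replicate 1). Kap, the kidney androgen-regulated protein of the proximal tubule (chr6:133826814-133830725, minus strand), stood at 30.4, 0.723, 0.114 and 0.567 CPM in ovary and 13757, 12645, 15189 and 14051 CPM in kidney (log2 difference -10.78, SE 1.92, adjusted p 0.00155; -14.84 without ovary replicate 1). Lrp2, the endocytic receptor megalin (chr2:69254684-69416409, minus strand), stood at 7.46, 2.05, 2.91 and 2.77 CPM in ovary and 2908, 2734, 2186 and 2186 CPM in kidney (log2 difference -9.36, SE 0.44, adjusted p 2.11e-08; -9.90 without ovary replicate 1). The labelled organs thus carried their defining markers. Leaving out ovary replicate 1 widened the organ difference of Slc34a1 and Kap, whereas Lrp2 held 2.05 to 2.91 CPM in the other ovary libraries.

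**Figure D1:**
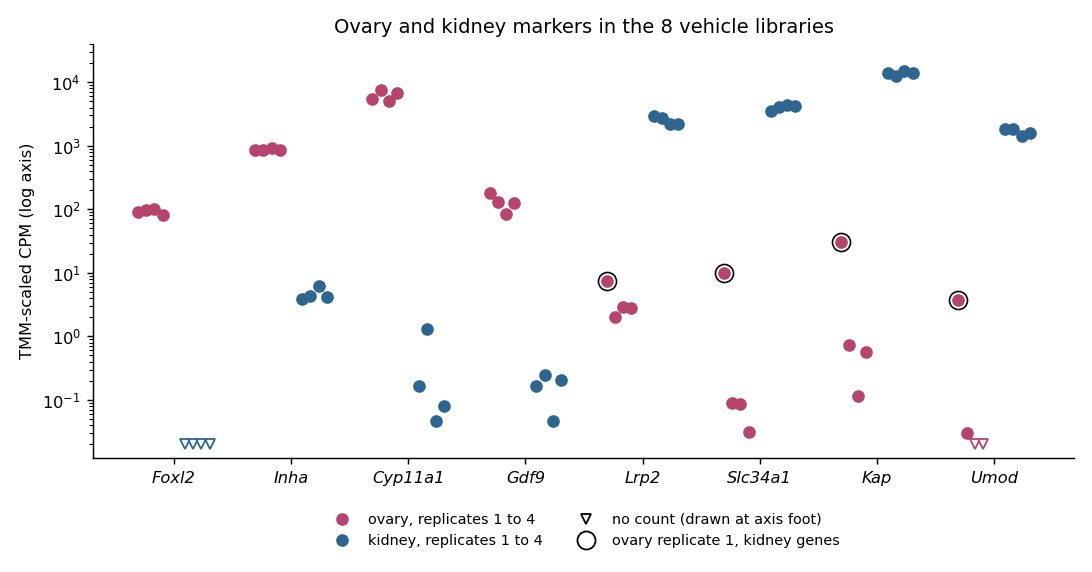
CPM of the 8 organ markers in each vehicle library on a log axis, one point per library in the order of replicates 1 to 4, with triangles at the foot for libraries without a count and rings around ovary replicate 1. The 4 ovary markers are high in every ovary library, the 4 kidney markers are high in every kidney library, and ovary replicate 1 lies above the other ovary libraries for the 4 kidney markers.

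Most genes that could be tested differed between the organs. Of 18923 genes tested, 15445 (81.6%) were called, 7742 (40.9%) higher in ovary and 7703 (40.7%) higher in kidney, and the median log2 difference was 0.0023. Large differences numbered 2333 (12.3%) higher in ovary and 2774 (14.7%) higher in kidney, 27.0% in all, and the libraries of both organs did not overlap for 77.5% of genes. With such a background a call alone says little about a gene, so lists are described below by their large differences and medians. Counts of called members are to be read beside the 40.9% and 40.7% of all genes. The large ovary genes took 18.1% of scaled counts in ovary and 1.59% in kidney. The large kidney genes took 33.4% in kidney and 3.33% in ovary. Without ovary replicate 1, 2281 of the 2333 and 2715 of the 2774 were again large. In bulk tissue, fewer cells of a type and less RNA per cell cannot be told apart, here or in any list below.

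**Figure D2:**
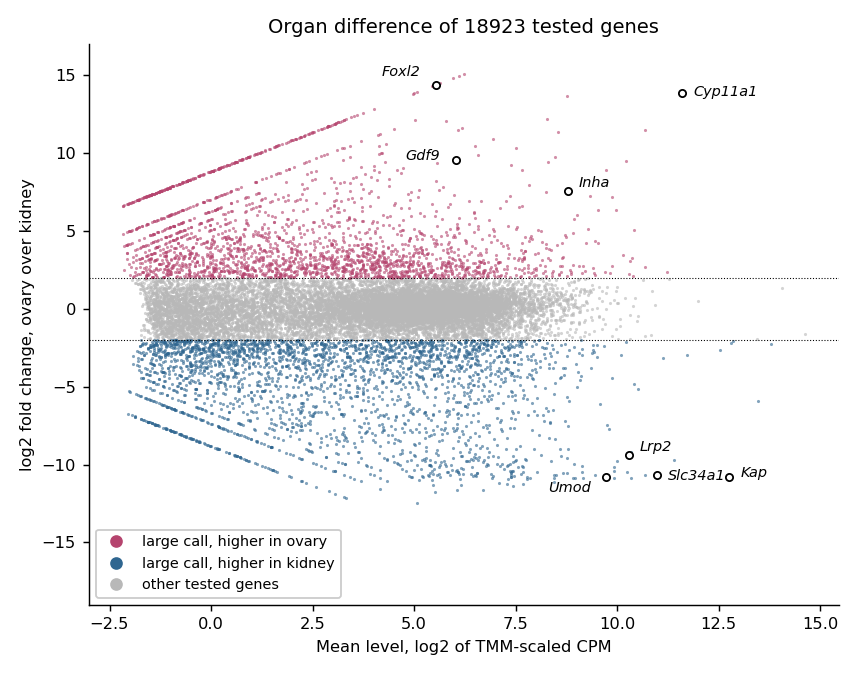
Log2 difference (ovary minus kidney) against the log2 of mean CPM for all 18923 tested genes, in colour where the call is at least 4-fold (dotted lines), with the 8 organ markers ringed and named. Both directions reach beyond 10 on the log2 scale; the straight bands at low levels are genes with no or few counts in one organ, whose fitted differences depend on the offset the test adds to counts.

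The 12 large ovary genes of highest CPM included those of steroid synthesis, basement membrane and matrix. In TPM, the highest of these 12 were Cyp11a1 (8380.4 ± 1482, SD, n = 4), Hsd3b1 (5070.2 ± 1691), the matrix protein Sparc (2996 ± 149), the epoxide hydrolase Ephx2 (2397 ± 346) and the high-density lipoprotein receptor Scarb1 (2258 ± 506). The basement membrane collagens Col4a1 (4039 ± 707 CPM in ovary, 783 ± 60.0 in kidney) and Col4a2 (2179.6 ± 393 and 515 ± 24.1), the desaturase Scd2 (2378 ± 176 and 243 ± 38.8) and Heg1 (2643 ± 544 and 79.1 ± 9.05) were also among them. The 12 largest fitted differences at 50 CPM or more included Foxl2 and Edn2 and the oocyte genes Padi6, Nlrp14, Nlrp5 and Zp3, all without a kidney count. The fitted size of such genes is no measure of their order; against a floor of 3 counts over the kidney group, Edn2 was at least 4766-fold and Zp3 at least 1964-fold higher in ovary. Cyp11a1 and Akr1cl, an aldo-keto reductase gene, were counted in kidney with 39 and 6 read pairs, and their log2 differences were 13.88 and 13.64. Frmd5 stood at 601, 463, 715 and 696 CPM in ovary and 0.0819, 0.202, 0.0472 and 0.163 CPM in kidney (log2 difference 12.21, SE 0.25). Rhox8, a homeobox gene of the X chromosome, stood at 85.1, 71.1, 131 and 113 CPM in ovary and 0 in every kidney library. Foxl2os, the antisense neighbour of Foxl2, averaged 67.2 ± 19.4 CPM in ovary and had no kidney count; counted without strand, its reads and those of Foxl2 cannot be fully told apart.

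Granulosa genes were high in ovary throughout the list. All 20 of 20 tested members were called higher in ovary and 19 by at least 4-fold, with a median log2 difference of 7.06 beside 0.0023 over all genes. The inhibin and activin subunit Inhba stood at 139.6, 238, 226 and 189 CPM in ovary against 1.43, 1.70, 1.65 and 1.63 CPM in kidney. The gap junction protein Gja1 (connexin 43) averaged 1010.4 ± 65.3 CPM against 15.7 ± 2.93 CPM (log2 difference 6.0, SE 0.14), and the oestrogen-induced gene Greb1 326 ± 84.2 against 2.14 ± 0.409. Amh, the hormone of small growing follicles, averaged 69.1 ± 22.5 CPM and its receptor gene Amhr2 57.7 ± 8.54 CPM in ovary, and 0.344 ± 0.0809 and 0.336 ± 0.140 CPM in kidney. Fshr and Cyp19a1, the FSH receptor and aromatase genes of preovulatory granulosa cells, were low in ovary at 15.2 ± 1.29 and 14.7 ± 7.29 CPM; neither had a kidney count, which puts them at least 483-fold and 464-fold higher. The one member under 4-fold was Wt1, at 74.7 ± 7.77 CPM in ovary and 28.4 ± 2.29 CPM in kidney, where podocytes express it.

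Luteal and steroidogenic genes summed to 16941 to 24868 CPM in ovary and 511 to 593 CPM in kidney. Of 19 tested members, 16 were called higher in ovary, 15 by at least 4-fold and none lower, with a median of 5.50. The LH receptor gene Lhcgr stood at 659.6, 894, 589 and 825 CPM in ovary and 0.205, 0.486, 0.283 and 0.163 CPM in kidney (log2 difference 11.33, SE 0.24, adjusted p 2.87e-13). Star, which carries cholesterol into mitochondria, stood at 1145, 1401, 1339 and 1251 CPM in ovary and 9.54, 8.86, 8.4 and 6.92 CPM in kidney (log2 difference 7.25). Hsd3b1, which makes progesterone from pregnenolone, stood at 2866, 4809, 2205 and 3281 CPM in ovary and 0.450, 3.52, 0.189 and 0.244 CPM in kidney, with kidney replicate 2 the highest kidney library. Scarb1 stood at 1759.7, 2551, 1512 and 2143 CPM against 24.4, 26.9, 22.8 and 26 CPM, and the secreted Wnt antagonist Sfrp4 at 2069.9, 2959.7, 1796 and 2664 CPM against 3.19, 3.20, 3.40 and 3.34 CPM. The electron donor Fdx1 averaged 1350.1 ± 136 CPM against 66.5 ± 1.93 CPM. The 3 members that did not pass the test were Pgr, the progesterone receptor (2.00 ± 0.557 CPM in ovary, 1.74 ± 0.456 in kidney), the progesterone-degrading Akr1c18 (114 ± 23.0 and 81.6 ± 29.5, adjusted p 0.104, and 0.00262 without kidney replicate 1) and Insl3 (0.622 ± 0.0976 and 0.799 ± 0.164). For Insl3, 65% of the exon length overlaps other genes.

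The genes that make or import cholesterol, the substrate of these enzymes, leaned the same way. Of 25 tested members, 23 were called higher in ovary, 13 by at least 4-fold, and 1 higher in kidney, with a median of 2.09. Hsd17b7 averaged 929.5 ± 449 CPM in ovary and 31.3 ± 1.73 CPM in kidney (log2 difference 4.89, SE 0.38), and Msmo1 567 ± 75.4 and 38.1 ± 9.84. Hmgcs1, an early enzyme of the pathway, averaged 819 ± 144 and 373 ± 9.71 CPM (log2 difference 1.13). The late enzyme Cyp51 averaged 560.2 ± 84.4 and 438 ± 42.0 CPM (log2 difference 0.35). The gap between the organs was thus uneven along one pathway.

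Genes that LH is known to raise, or that serve the expansion of the cumulus at ovulation, were mostly far higher in ovary 13 h after hCG. Of 28 tested members, 26 were called higher in ovary and 23 by at least 4-fold (median 5.23). Vcan, the proteoglycan versican of the expanding cumulus matrix, stood at 1902, 1201, 2052 and 2291 CPM in ovary and 11.6, 15.1, 10.5 and 14.5 CPM in kidney. Adamts1, the protease that cleaves it, stood at 1461, 941, 1406 and 1796 CPM against 102, 73.3, 64.0 and 66.8 CPM, and the protease inhibitor Timp1 at 615, 548, 825 and 864 CPM against 0.532, 0.769, 1.04 and 0.937 CPM. Edn2, the endothelin made at ovulation, stood at 136, 81.1, 191 and 194 CPM in ovary with no kidney count, at least 4766-fold higher. Ovary replicate 2 was the lowest of the 4 ovary libraries for Edn2 and Timp1. Some genes known as early responders to LH were low in ovary: Areg averaged 3.05 ± 0.761 CPM, Has2 3.11 ± 0.631 CPM and Ptx3 6.80 ± 0.711 CPM, against 189 ± 41.5 CPM for Ereg and 276 ± 67.9 CPM for Runx1. No earlier time was measured, so no change with time can be read from these levels. Of 21 genes of matrix proteases and their inhibitors, 14 were at least 4-fold higher in ovary (median 2.93), among them Mmp2 at 274 ± 28.1 against 16.8 ± 1.83 CPM and Serpine2 at 539.9 ± 68.3 against 27.5 ± 1.24 CPM. Timp3 went the other way at 245 ± 18.5 against 1941 ± 74.1 CPM, and Ctsl (2083 ± 397 against 448 ± 13.2 CPM) shares 28% of its exon length with other genes.

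Oocyte genes were mostly at or near 0 in kidney. Of 34 tested members, 33 were at least 4-fold higher in ovary, with a median log2 difference of 9.0, or 8.56 with the 10 genes without any kidney count set at their lower bound. Padi6, a component of the cytoplasmic lattices of the egg, stood at 177, 129.5, 109 and 139 CPM in ovary and 0 in all kidney libraries, at least 4378-fold higher. Nlrp5, of the subcortical maternal complex, stood at 106, 82.7, 74.2 and 87.9 CPM and Nlrp14 at 163, 123, 93.2 and 121 CPM, again with no kidney count. Zp3, a zona pellucida protein, stood at 79.7, 59.8, 45.1 and 64.9 CPM and was at least 1964-fold higher. Ovary replicate 1 was the highest ovary library for Gdf9, Padi6 and Zp3. Bmp15, the oocyte partner of Gdf9, averaged 68.1 ± 22.7 CPM in ovary and 2.36 ± 0.515 CPM in kidney. The exception in the list was Kit, the receptor through which granulosa cells act on oocytes, at 29.8 ± 4.96 CPM in ovary and 37.9 ± 3.26 CPM in kidney, where intercalated cells also express it.

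Theca and stromal genes were mixed: 6 of 17 were at least 4-fold higher in ovary and 1 in kidney (median 1.46). The androgen-making enzyme gene Cyp17a1 averaged 13.1 ± 3.97 CPM in ovary and 0.288 ± 0.146 CPM in kidney, and Aldh1a1 363 ± 68.1 and 9.63 ± 1.49 CPM. Fbln5, an elastic fibre protein, was the member higher in kidney by over 4-fold (30.8 ± 1.94 against 164 ± 9.97 CPM). Of 16 genes of the ovarian surface and oviduct, 4 were large in ovary (Upk3b, Msln, Muc16 and Lgals7) and 3 in kidney (Cdh1, Gpm6a and Krt7). Of these epithelial genes, Cdh1 averaged 18.5 ± 1.76 CPM in ovary and 321 ± 8.67 CPM in kidney, and the mesothelial Msln 31.1 ± 3.77 and 4.78 ± 1.47 CPM.

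**Figure D3:**
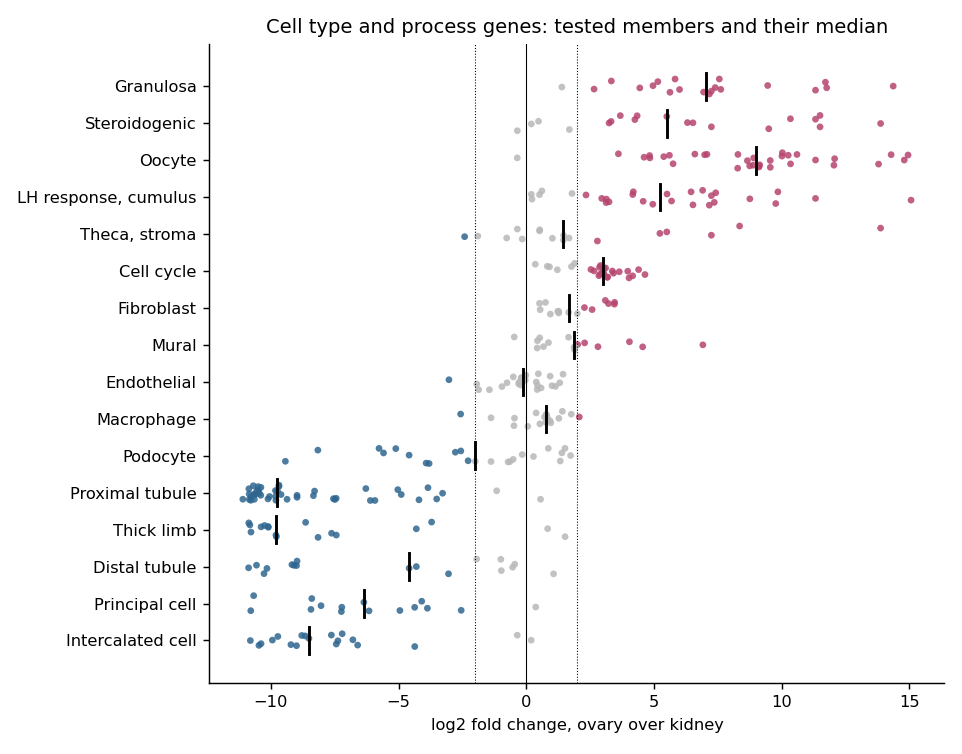
Log2 difference (ovary minus kidney) of the tested members of 16 gene lists, one point per gene, with the list median as a bar, dotted lines at 4-fold and colour for genes called beyond them. Granulosa, steroidogenic, oocyte and LH-response lists lie to the ovary side, the nephron lists lie to the kidney side, and endothelial genes lie on both sides of 0 (median -0.11).

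On the kidney side the large genes of highest CPM included mitochondrial transcripts and proximal tubule products. In TPM, mt-Cytb reached 40878 ± 3163 (SD, n = 4), Kap 39415 ± 2291, the plasma glutathione peroxidase Gpx3 27954 ± 2614 and the kallikrein Klk1 5439.5 ± 375. In ovary the same genes stood at 12402 ± 3351, 33.0 ± 62.3, 664 ± 88.1 and 13.6 ± 10.7 TPM. Without ovary replicate 1, Kap averaged 0.468 CPM in ovary in place of 7.94, and Klk1 2.82 in place of 4.48. The sodium pump beta subunit gene Atp1b1 (81.9 ± 7.42 CPM in ovary, 2865 ± 38.7 in kidney) and the gluconeogenic enzyme Pck1 (2.06 ± 3.76 and 3301 ± 359; 0.178 in ovary without replicate 1) were also among the 12 large kidney genes of highest CPM. In the fit of all 8 libraries the largest differences at 50 CPM or more included the organic anion carriers Slc22a28, Slc22a7, Slc22a6 and Slc22a29, the conjugating enzyme Sult1c2 and the acyl-CoA synthetase Acsm1. That order depends on ovary replicate 1. Without it, the lower bounds of the kidney to ovary ratio were 86452 for Acsm2 and 38226 for Slc12a3, which were not among those 12, 23259 for Slc22a6, 13683 for Acsm1 and 2224 for Slc22a28 (3 counts over the ovary group). Slc22a29, with 2 ovary read pairs left, had a log2 difference of -11.45, against -15.70 for Slc34a1. Slc22a28 stood at 0.0302, 0, 0 and 0 CPM in ovary and 68.0, 61.1, 71.3 and 67.1 CPM in kidney. Slc7a12 stood at 0.453, 0, 0 and 0 CPM against 422, 299.9, 191 and 171 CPM, and Guca2b, the natriuretic peptide uroguanylin, at 0.423, 0.0904, 0 and 0 CPM against 292, 289, 342 and 335 CPM.

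Most proximal tubule genes were near 0 in ovary. Of 45 tested members, 43 were at least 4-fold higher in kidney, with a median of -9.74, or -10.93 without ovary replicate 1. The summed level of the list was 844, 592, 874 and 835 CPM in ovary replicates 1 to 4 and 53888 to 57023 CPM in kidney. Slc22a8, an organic anion carrier, averaged 692 ± 76.7 CPM in kidney and stood at 1.30, 0.121, 0 and 0.0630 CPM in ovary. Acsm2 averaged 2602 ± 161 CPM and stood at 5.65, 0, 0 and 0 CPM in ovary, and Cubn, the partner receptor of Lrp2, 636 ± 93.6 and 2.69, 2.05, 1.97 and 1.42 CPM. The 2 that were not were Ace (71.7 ± 7.27 against 159.7 ± 35.8 CPM) and Slc7a8, an amino acid exchanger, which was higher in ovary (513 ± 128 against 348 ± 41.4 CPM, log2 difference 0.56). The call of Slc7a8 did not hold under every alternative processing. Aqp1 and Gatm were present in ovary as well, at 30.9 ± 0.656 and 21.9 ± 3.02 CPM, under averages of 1008 ± 92.2 and 1502 ± 164 CPM in kidney.

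Genes of the later nephron segments were also low or at 0 in ovary. In the thick limb 15 of 17 tested members were large in kidney, with a median of -9.78, and -10.93 without ovary replicate 1 (-9.14 with genes at 0 in ovary set at their bound). The salt carrier Slc12a1, target of loop diuretics, stood at 3.96, 0.0301, 0 and 0.189 CPM in ovary and 2225, 1858, 1818 and 1870.2 CPM in kidney. In the distal tubule 11 of 17 were large (median -4.58). The thiazide-sensitive carrier Slc12a3 stood at 2.45, 0, 0 and 0 CPM in ovary and 1106, 1099, 1198 and 1191 CPM in kidney, and without ovary replicate 1 it was at least 38226-fold higher in kidney. Widely expressed members of that list differed less, such as Wnk1 at 362 ± 17.2 and 711 ± 9.41 CPM. In principal cells 14 of 15 members were large in kidney (median -6.36), and in intercalated cells 17 of 19 (median -8.51). Foxi1, the transcription factor of intercalated cells, stood at 0.121, 0, 0 and 0 CPM in ovary and 53.5, 57.7, 70.8 and 63.8 CPM in kidney; without ovary replicate 1 it was at least 2038-fold higher in kidney. The proton pump subunit Atp6v0a4 averaged 0.715 ± 0.308 and 366 ± 8.76 CPM, and the bicarbonate-forming Car2 3.94 ± 0.990 and 583 ± 67.3 CPM.

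Podocyte genes were a weaker mark of kidney. Of 23 tested members, 11 were large in kidney and none in ovary, with a median of -1.99, and 6 were called higher in ovary. Nphs1, nephrin of the slit diaphragm, stood at 0.181, 0.0603, 0 and 0 CPM in ovary and 38.4, 45.4, 48.4 and 45.8 CPM in kidney. The glomerular basement membrane collagens Col4a3 and Col4a4 averaged 577 ± 57.2 and 593 ± 43.2 CPM in kidney and 16.7 ± 2.39 and 42.5 ± 4.86 CPM in ovary, opposite to Col4a1 and Col4a2. Synpo, an actin-binding protein of podocytes, was higher in ovary (316 ± 40.5 against 94.7 ± 10.4 CPM, log2 difference 1.74).

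Transport across these segments showed in the aquaporins and claudins. Of 11 tested aquaporins, 8 were large in kidney and 3 in ovary (median -4.40). Aqp2, the vasopressin-regulated water channel of principal cells, stood at 14.8, 20.9, 22.8 and 19.9 CPM in ovary and 291, 226, 343 and 287 CPM in kidney (log2 difference -3.87, SE 0.16). Its ovary level did not depend on replicate 1, which was the lowest of the ovary libraries. Aqp3, Aqp4 and Aqp6 averaged 102 ± 12.6, 117 ± 14.7 and 108 ± 10.2 CPM in kidney and 0.293 ± 0.161, 0.0680 ± 0.117 and 0.106 ± 0.211 CPM in ovary; without ovary replicate 1, Aqp4 averaged 0.0100 CPM there and Aqp6 was at 0. Aqp5, Aqp9 and Aqp12 were the members higher in ovary, at 6.72 ± 1.70, 0.861 ± 0.216 and 0.836 ± 0.0863 CPM against 0.986 ± 0.395, 0.132 ± 0.161 and 0. Of 17 tested claudins, 9 were large in kidney, led by Cldn2 of the proximal tubule (4.52 ± 1.40 against 519 ± 45.1 CPM). Cldn18 was the large ovary member (26.6 ± 5.39 against 0.130 ± 0.0988 CPM).

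The renin-angiotensin genes were high in kidney but not absent from ovary. Of 12 tested members, 5 were large in kidney, Ren1, Mme, Agtr1a and Mas1 among them, and 2 in ovary (median -1.56). Ren1, renin of the juxtaglomerular cells, stood at 22.7, 21.0, 36.8 and 29.0 CPM in ovary and 271, 283, 319.7 and 295 CPM in kidney (log2 difference -3.41, SE 0.16). The angiotensinogen gene Agt averaged 51.0 ± 4.56 and 119 ± 11.0 CPM, and the angiotensin II receptor gene Agtr1a 2.47 ± 0.887 and 63.9 ± 2.99 CPM. The large ovary members were Akr1b7, an aldo-keto reductase also found in renin and steroid-making cells (225 ± 14.7 against 4.27 ± 1.02 CPM, 27% of its exon length shared), and the receptor gene Agtr2 (1.96 ± 0.563 against 0.369 ± 0.0896 CPM).

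Hormone receptors divided by organ. Of 29 tested receptor genes, 6 were large in ovary and 10 in kidney (median -0.26). Besides Lhcgr and Fshr, ovary carried the prostaglandin F receptor gene Ptgfr (349 ± 172 against 36.8 ± 3.23 CPM) and the oxytocin receptor gene Oxtr (133 ± 28.6 against 4.59 ± 1.76 CPM). Kidney carried the growth hormone receptor gene Ghr (55.7 against 791 CPM on average), Pth1r for parathyroid hormone (15.4 ± 2.26 against 680.4 ± 12.3) and Vdr for vitamin D (4.35 ± 0.256 against 286 ± 11.3). The share of oestrogen receptor forms differed: Esr1 made up 24.4% (19.9 to 29.2) of the summed TPM of Esr1 and Esr2 in ovary and 95.9% (93.0 to 98.8) in kidney. Esr1 itself was higher in ovary (8.99 ± 0.853 against 3.41 ± 0.585 TPM, log2 difference 0.89). Esr2 averaged 29.0 ± 8.25 TPM in ovary and 0.140 ± 0.0795 TPM in kidney. Of 18 genes of vitamin D, phosphate and calcium handling, 14 were large in kidney and none in ovary (median -6.79, and -7.22 without ovary replicate 1), among them Calb1 (1.53 ± 0.865 against 773 ± 91.4 CPM) and the FGF23 co-receptor gene Kl (43.3 ± 13.5 against 1039 ± 46.9 CPM).

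Transcription factors of organ identity were mostly far apart. Of 37 tested factors, 12 were large in ovary and 21 in kidney. Nr5a1, which encodes SF-1, stood at 123, 126, 169 and 123 CPM in ovary and 0, 0.162, 0 and 0 CPM in kidney, and its relative Nr5a2 at 595, 462, 744 and 718 CPM against 1.02, 1.21, 0.472 and 0.815 CPM. Gata4, a partner of SF-1 on gonadal promoters, averaged 145 ± 32.1 and 0.0405 ± 0.0572 CPM. Hnf4a stood at 3.66, 1.02, 1.85 and 2.30 CPM against 819, 676, 710.4 and 643 CPM. Pax2 and Pax8, needed for nephron formation, averaged 97.0 ± 5.76 and 132 ± 12.9 CPM in kidney and 1.04 ± 0.429 and 0.665 ± 0.443 CPM in ovary, and Pou3f3 and Lhx1 223 ± 10.7 and 38.2 ± 2.10 CPM in kidney and 0.220 ± 0.341 and 0.0460 ± 0.0581 CPM in ovary (0.0521 and 0.0210 without ovary replicate 1). Emx2, needed in both gonad and kidney development, was closer, at 18.7 ± 2.46 and 68.9 ± 0.835 CPM. Of the genes whose promoters are shown with the SF-1 site, Amhr2 was high where Nr5a1 was high. Klk1 averaged 2593 ± 259.9 CPM in kidney and 4.48 ± 3.43 in ovary (2.82 without ovary replicate 1).

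Hox genes, which set position along the body axis, were mostly higher in kidney. Of 31 tested genes, 24 were large in kidney and none in ovary (median -3.27). The Hoxa cluster summed to 12.3 TPM in ovary and 208 in kidney, Hoxb to 14.8 and 294, Hoxd to 63.9 and 217, and Hoxc to 92.2 and 105. The median log2 differences of the tested genes were -4.48 (Hoxa, 10 genes), -4.47 (Hoxb, 8), -2.48 (Hoxd, 6) and -0.48 (Hoxc, 7). Hoxa9 stood at 1.27, 0.874, 0.513 and 0.441 CPM in ovary and 72.6, 77.1, 78.5 and 76.6 CPM in kidney, and Hoxa10 at 1.06, 0.663, 0.428 and 0.756 CPM against 76.5, 75.2, 78.1 and 72.6 CPM. Hoxc6 stood at 28.5, 28.6, 24.9 and 25 CPM in ovary and 34.1, 38.2, 37.5 and 39.6 CPM in kidney, so these libraries did not overlap, but the log2 difference was only -0.48. Within the Hoxc cluster the 3 large differences were Hoxc9, Hoxc10 and Hoxc11, at its 5′ end, while Hoxc4, Hoxc5, Hoxc6 and Hoxc8 were all within 0.5. Hoxb2, Hoxb3, Hoxd3 and Hoxd4 share 45% or more of their exon length with other genes. The difference between clusters was not tested.

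**Figure D4:**
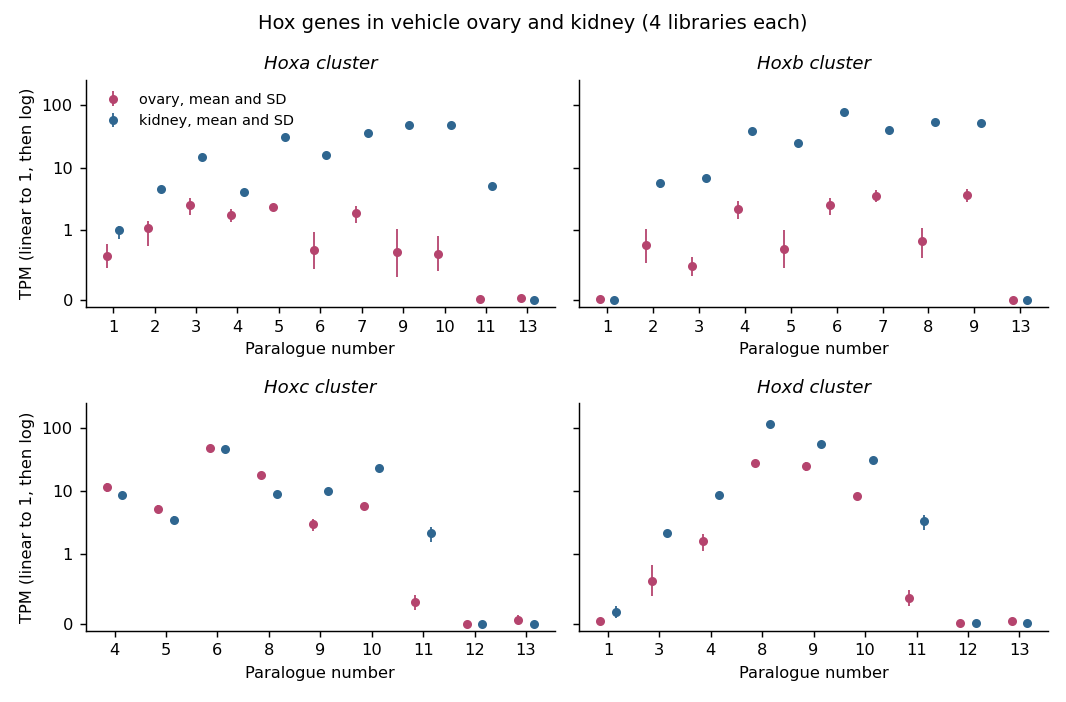
TPM of each Hox gene in vehicle ovary and kidney (mean and SD of 4 libraries), by cluster and paralogue number, on an axis that is linear up to 1 and logarithmic above. The tested Hoxa, Hoxb and Hoxd genes lie higher in kidney, and Hoxc4, Hoxc5, Hoxc6 and Hoxc8 lie near each other in both organs.

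Metabolic genes differed both in level and in which gene of a pair was used. Of 24 genes of gluconeogenesis and fatty acid oxidation, 14 were large in kidney and none in ovary (median -2.91). Acadm, which opens medium-chain fatty acid oxidation, averaged 154 ± 26.7 CPM in ovary and 1304 ± 288 CPM in kidney. Ldha took 68.5% (63.0 to 74.6) of the summed TPM of Ldha and Ldhb in ovary and 24.3% (23.3 to 25.3) in kidney, and Slc2a1 took 99.9% (99.8 to 99.9) and 47.8% (46.8 to 49.7) of Slc2a1 and Slc2a2. The sodium pump beta subunits changed places, Atp1b1 taking 24.7% (22.7 to 26.2) of Atp1b1 and Atp1b3 in ovary and 94.7% (94.6 to 94.9) in kidney. For lipoprotein receptors, Scarb1 took 99.0% (98.8 to 99.2) of Scarb1 and Cd36 in ovary and 30.4% (24.2 to 34.9) in kidney. Of 34 genes of drug metabolism and export, 27 were large in kidney and 3 in ovary (median -8.65); the ovary members were Cyp1b1 (492 ± 67.5 against 41.2 ± 2.73 CPM), Abcb1a (54.0 ± 4.18 against 6.03 ± 0.769) and Sult1e1 (1.64 ± 0.456 against 0.0337 ± 0.0447).

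Mitochondrial genes were higher in kidney from both genomes. All 30 tested nuclear genes of oxidative phosphorylation were called higher in kidney, 6 by at least 4-fold, with a median of -1.66. All 13 genes encoded in mitochondria were called higher in kidney, with a median of -2.09. Of assigned reads, mitochondrial transcripts took 3.42% ± 0.870 in ovary and 11.0% ± 0.735 in kidney (SD, n = 4), a difference larger than the spread in either organ (exact two-sided permutation test, p = 0.0286, the smallest that 70 groupings allow). The 10 most abundant genes of each library took 7.87% ± 0.765 in ovary and 15.1% ± 0.934 in kidney (SD, n = 4), with an exact permutation p of 0.0286. With mitochondrial genes left out this difference was 1.08 percentage points in place of 7.24. The part of RNA isolation in these shares was not tested, since it changed with the organ.

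Lists of cell types that both organs contain had medians nearer 0. Of 24 endothelial genes, 10 were called higher in ovary, 10 in kidney and 4 in neither, near the shares of all genes (40.9% and 40.7%). Their median was -0.11, whose sign turns with another scaling. Plvap, of fenestrated capillaries, was the 1 large difference among them (32.8 ± 6.06 CPM in ovary, 267 ± 19 in kidney), while Pecam1 averaged 124 ± 15 and 94.6 ± 4.64 CPM. Mural genes leaned to ovary, 6 of 16 by at least 4-fold (median 1.88), with smooth muscle Acta2 at 849 ± 163 and 121 ± 15.5 CPM and Actg2 at 162 ± 24.6 and 1.34 ± 0.257. Fibroblast genes leaned the same way, 6 of 15 (median 1.66), with Col3a1 at 2295 ± 305 and 268 ± 31.1 CPM and Col1a1 at 933 ± 77.6 and 192 ± 25. Of 18 macrophage genes, 13 were called higher in ovary and 4 in kidney (median 0.77), beside 40.9% and 40.7% of all genes. Only 1 was large in ovary and 1 in kidney, the latter being the receptor gene Csf1r (13.7 ± 1.96 CPM in ovary against 81.1 ± 4.30 in kidney). Neutrophil genes were low, with sums of 7.36 to 15.9 CPM in ovary and 4.25 to 4.81 CPM in kidney. Of 7 tested, 5 were called higher in ovary and 2 were large there (median 1.13), beside 40.9% and 12.3% of all genes. The highest, Ltf, averaged 3.17 ± 3.43 CPM in ovary, with 8.29 in replicate 2 and 0.998 to 1.81 in the other ovary libraries. Lymphocyte genes were low in both organs, and the T-cell genes Cd3d, Cd3e and Cd3g did not pass the filter on low counts.

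Most red cell genes were higher in kidney, and fat genes were mixed. Of 9 erythroid genes 8 were called higher in kidney, 7 of them large, and 1 higher in ovary. Of all genes, 40.7% were called higher in kidney and 14.7% were large there. The lowest log2 difference of the list, -8.51, was that of Slc4a1, which is also in the list of intercalated cells. Hba-a1 stood at 27.9, 26.1, 60.4 and 20.8 CPM in ovary and 124, 260.5, 239 and 262 CPM in kidney. Of assigned reads, haemoglobin took 0.0128% ± 0.00471 in ovary and 0.0546% ± 0.0160 in kidney (SD, n = 4), with an exact permutation p of 0.0286. Without any one ovary library this p was 0.0571, and without any one kidney library it was 0.0286. Of 12 adipocyte genes, 7 were called higher in kidney, 2 higher in ovary and 3 in neither, beside 40.7% and 40.9% of all genes in kidney and ovary. Of the 12, 5 were large in kidney (Ucp1, Cidec, Cfd, Lep and Adipoq) and 2 in ovary, Plin4 and Pparg. Adipoq, the fat-cell hormone adiponectin, stood at 0.0604, 3.83, 0.0285 and 0.851 CPM in ovary, highest in replicate 2, and 5.04, 12.4, 7.97 and 10.1 CPM in kidney. Summed adipocyte genes ranged from 273 to 545 CPM in ovary and 332 to 451 CPM in kidney. The calls of Cfd and Adipoq did not hold when single libraries were left out, with adjusted p up to 0.087 for Cfd (without ovary replicate 4) and 0.0594 for Adipoq (without kidney replicate 2). The part of blood or attached fat in these levels was not tested.

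Genes of the cell cycle were higher in ovary throughout: all 27 of 27 were called and 21 were large (median 3.02). Mki67, a mark of dividing cells, stood at 193, 146, 207 and 158 CPM in ovary and 21.2, 20.7, 22.9 and 21.7 CPM in kidney, and Ccnd2, the cyclin of proliferating granulosa cells, averaged 166 ± 14.4 and 26.4 ± 1.15 CPM. Immediate early and heat shock genes, in 1 list, were called higher in ovary for 22 of 25 (median 1.42), beside 40.9% of all genes. The immediate early gene Egr1 averaged 178 ± 53.7 and 22.6 ± 8.55 CPM. Genes of the hypoxia response were close: none of 19 differed by 4-fold (median 0.35). Hif1a averaged 358 ± 61.9 CPM in ovary and 138 ± 7.70 in kidney, and Epas1, which encodes the HIF-2α that PT-2385 inhibits, 159 ± 15.8 and 211 ± 10.7. The 10 genes of highest mean CPM among those that differed by under 0.5 on the log2 scale were Eef1a1, Eef2, Malat1, Spp1, Hspa8, Eif4g2, Calr, P4hb, Sptbn1 and Rpl4. Spp1, osteopontin, averaged 1433 ± 438 CPM in ovary and 1250.5 ± 74.5 in kidney, with a log2 difference of 0.20 (adjusted p 0.336, and 0.0132 without ovary replicate 2). Ovary replicate 3 had the lowest Malat1 of the 8 libraries (602 CPM).

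The trace of kidney transcripts in ovary replicate 1 was of a like size across nephron genes. Over 26 nephron genes chosen for at least 100 CPM in kidney and at most 0.2 CPM in ovary replicates 2 to 4, replicate 1 held a median of 0.250% of the kidney mean, with a range of 0.181 to 0.426%. Since the choice used ovary replicates 2 to 4, their medians of 0 to 0.00669% are a description; the 4 ovary libraries of PT-2385 mice, which were not used in it, had medians of 0 to 0.00156%. The adrenal gland lies on the kidney, and its genes were examined as well. Ovary replicate 1 was also the library in which Cyp11b2, of the adrenal cortex, took 36% of the reads of Cyp11b1 and Cyp11b2, against 0.0248 to 0.315% in the other vehicle ovaries and 0.30 to 0.704% in PT-2385 ovaries. The sum of both was 86.4, 121, 115 and 100.1 CPM in ovary replicates 1 to 4. These genes are near-identical copies, so the split of reads between them is uncertain. Cyp21a1, of the same gland, stood at 0.453, 0.904, 0.314 and 0.126 CPM in ovary and 0.450, 0.809, 0.0472 and 0 CPM in kidney. In kidney, replicate 2 held 1.29 CPM of Cyp11a1, 3.52 of Hsd3b1 and 1.86 of Cyp11b1, each above the other kidney libraries. That library was also the highest of the 4 for Cyp21a1, Nr5a1 (4 read pairs), Gata4 (3 read pairs), Mrap and Lhcgr, which stood at 0.205, 0.486, 0.283 and 0.163 CPM in kidney replicates 1 to 4. It was not the highest for Cyp11b2, Inha, Star, Sfrp4, Amh, Akr1b7 and Mc2r, and Foxl2 and Zp3 were at 0 in all 4. Sfrp4 lay within 3.19 to 3.40 CPM, Star within 6.92 to 9.54 CPM and Amh within 0.236 to 0.407 CPM over the kidney group. What carried these transcripts was not tested.

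**Figure D5:**
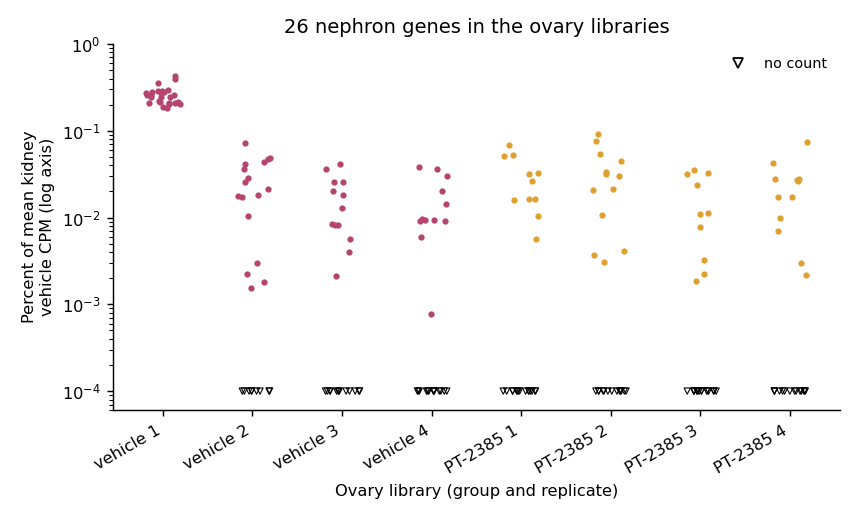
Level of 26 nephron genes in each ovary library as a percent of the vehicle kidney mean on a log axis, one point per gene, with triangles at the foot for genes without a count. In ovary vehicle replicate 1 all 26 genes lie between 0.181 and 0.426%; in the other vehicle and PT-2385 ovary libraries they lie lower, many without a count.

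The same organ comparison in the 8 PT-2385 libraries repeated the large differences. Of 18709 genes tested there, 16103 (86.1%) were called and 5247 (28.0%) were large, 2312 (12.4%) higher in ovary and 2935 (15.7%) in kidney. Of the 5107 large vehicle genes, 4893 could be tested, 4655 (91.1%) were again large in the same direction, 4891 were called in the same direction, and none was called in the opposite one. The 2 that were not called were Fer1l4 (log2 difference 2.37 in vehicle and 0.28 in PT-2385 mice) and Kcng1 (-2.77 and -1.35). The log2 differences of the markers in vehicle and PT-2385 mice were 7.56 and 7.73 for Inha, 13.88 and 16.16 for Cyp11a1, 9.56 and 9.17 for Gdf9, and -9.36 and -9.32 for Lrp2. In the marker genes that the kidney trace touched, the PT-2385 libraries gave -16.20 for Slc34a1 and -16.57 for Kap, closer to the vehicle values without ovary replicate 1. Over all 16 libraries a test of the difference between the vehicle and PT-2385 organ differences called 38 of 19977 genes (0.19%) at an adjusted p under 0.05. Of these, 9 were large in vehicle mice.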

How the data were processed

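Polyadenylated RNA was made into libraries with the Illumina Stranded mRNA Prep kit, per the labels' protocols. The submitters' processing notes name STAR and FastQC, whose versions and settings are not given in the sources used here. The deposited values are whole-number counts of read pairs per gene, made by the authors with featureCounts 2.0.6 over GENCODE vM27 exons (GRCm39), per the file headers; the recorded command sets no strand and no option for reads on several genes or places. Reads of overlapping genes and near-identical copies are therefore uncertain. Gene symbols came from a GENCODE M21 table, which named 52083 of 55359 gene IDs (94.1%).

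All else was computed from these counts. Genes were filtered with filterByExpr, scaled by TMM and tested with edgeR 4.0.16 (robust quasi-likelihood test, R 4.3.3) on the 8 vehicle libraries, with Benjamini-Hochberg adjustment over all genes tested; the 8 PT-2385 libraries had a fit of their own, and a fit of all 16 tested the difference between both. Library shares were tested with an exact two-sided permutation test over 70 groupings. Alternatives covered scaling, filter, tool, block and each library left out. Counts of 17223 genes were simulated with both groups drawn from the ovary means. The test recovered 64.2%, 75.4% and 100% of genes changed 1.5-, 2- and 4-fold, and 11 of 165 calls were false. Far fewer genes were changed there than differed between the organs. Scaling and false calls under a difference as wide as the real one were therefore not tested. Counts reached 23285083 to 33577065 pairs a library, which limits precision only for genes of few counts; intervals and floors (3 counts) cover counting error only. TPM used the exon lengths in the deposited files. Promoter windows matched 68.2% of tested genes, under the 80% needed to compare gene sets, so such a comparison was void.

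The named genes were the 8 markers, the 12 most abundant and the 12 largest differences of each direction, up to 6 abundant members and 4 contrary large calls of each list, 10 even genes, the transcription factors, Hox genes, aquaporins and gene pairs, and calls not repeated with PT-2385. Outside that rule, and after values were seen, Adipoq, Agt, Agtr1a, Akr1c18, Amh, Amhr2, Areg, Bmp15, Cidec, Cyp17a1, Cyp19a1, Cyp21a1, Dhcr7, Ereg, Fshr, Gatm, Ggt1, Has2, Insl3, Kit, Klrb1c, Lep, Lgals7, Mas1, Mc2r, Mmp2, Msln, Muc16, Nphs1, Ptx3, Runx1, Slc7a8, Ucp1, Upk3b, the CD3 genes and those under other observations were named. The comparison, its lists and markers were chosen with earlier results of these data known. Some genes that the rule names are not reported here.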

Additional observations from a re-analysis of the deposited data

Results flagged for a closer look

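A value was singled out where the highest or lowest of 4 libraries lay so far from the nearest other that the gap, as a part of the whole range, passed Dixon's 95% critical value. For normally spread values chance does this in about 1 in 20 groups. Where all other libraries have no count, a single read pair passes. That rate therefore does not hold for genes near the floor. Of 105 groups of values given per library, 20 met this, and over 404 groups, an ovary and a kidney one for each gene recomputed, 39 did, 20 of them through ovary replicate 1.

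Ovary replicate 1 was the high library for 11 kidney genes: Kap (30.4 CPM), Slc34a1 (9.79), Lrp2 (7.46), Acsm2 (5.65), Slc12a1 (3.96), Umod (3.69), Slc12a3 (2.45), Slc22a8 (1.30), Slc7a12 (0.453), Foxi1 (0.121) and Slc22a28 (0.0302), each against lower values in the other 3. The median of the 26 nephron genes, 0.250% of the kidney level, and the share of Cyp11b2 in Cyp11b1 plus Cyp11b2, 36%, stood out in the same library. For Slc22a28 the value is that of a single read pair.

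Kidney replicate 2 was the high library for Cyp11a1 (1.29 CPM), Hsd3b1 (3.52) and Nr5a1 (0.162). Kidney replicate 1 was low for Hba-a1 (124 CPM) and high for Slc12a1 (2225 CPM), and ovary replicate 3 was high for Nr5a1 (169 CPM). Ovary replicate 2 was high for the oviduct gene Ovgp1 (24.1 CPM).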

How the results depend on the processing

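Of 202 genes recomputed, Ovgp1 alone turned, and 3734 of 3785 gene values kept their side of the threshold. The counts of large differences moved with the filter and the size required. Without a filter on low counts they were 4118 in ovary and 4269 in kidney, with more genes tested; at 2-fold 4244 and 4828, and at 16-fold 991 and 1319. Tested against 4-fold itself (glmTreat), Col4a2, Ctsl, Fer1l4, Hba-a1, Hoxc9, Hoxd3, Agtr2, Aqp9, Ltf, Cidec, Lep, Cfd, Adipoq and mt-Cytb no longer passed. Meg3 and mt-Co2 also lost their call in some alternative. The fitted differences of Col4a2, Fer1l4, mt-Co2 and mt-Cytb fell under 4-fold in some alternative other than glmTreat. Leaving out each library gave 15195 to 15839 called vehicle genes, 2330 to 2544 large ovary genes and 2794 to 2995 large kidney genes, and in the PT-2385 libraries 15970 to 16337, 2310 to 2518 and 2953 to 3157. The kidney minus ovary share of haemoglobin was 0.0382 to 0.0496% with one library left out; without an ovary library (0.0405 to 0.0441%) the exact permutation p was 0.0571. Scaling by total counts alone moved the median of all genes from 0.0023 to 0.25 and the ovary part of large differences from 45.7% to 51.5%; relative to that shift Kit and Hspa8 lost and Akr1c18, Eef2, Slc2a1, Spp1 and Sptbn1 gained a call. The endothelial list was the one of 38 whose median took another sign. Same-numbered ovary and kidney libraries correlated at -0.0256 to 0.110 in their deviations, and not every pair passed the 0.1 required to treat them as paired; whether they came from one mouse is not stated. Ovary replicates 1 and 4 correlated best with the kidney of their own number, and ovary replicates 2 and 3 did not. With the replicate number as a block, 15356 genes were called, 2329 large in ovary and 2788 in kidney, and 16080, 2304 and 2949 in the PT-2385 libraries. Ovgp1 went from 1.6 to -1.11 without ovary replicate 2, and leaving out single libraries gave -1.11 to 2.00. Depth limits genes of few counts, which the bounds and counting intervals cover.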

Other observations

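Gene families gave further contrasts, chosen after values were seen. Of 306 solute carrier genes tested, 113 (36.9%) were large in kidney and 37 (12.1%) in ovary, beside 14.7% and 12.3% of all genes. Cytochrome P450 genes had 26 large in kidney and 7 in ovary of 50. All 11 tested Ugt genes, which add glucuronic acid to drugs and hormones, were large in kidney (median log2 difference -9.91). Of 14 Nlrp genes, many of them oocyte genes, 12 were large in ovary (median 10.59). Collagen genes had 13 of 41 large in ovary and 3 in kidney. Cytosolic ribosomal protein genes were called higher in ovary for 73 of 78, by a median of 0.88, beside 40.9% of all genes. Mitochondrial ribosomal protein genes were called higher in kidney for 58 of 77, by a median of -0.56, beside 40.7% of all genes. Few of either were large: 1 cytosolic gene in each direction and 1 mitochondrial gene in kidney. The difference in RNA isolation moved with these groups too, and its part was not tested.

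Imprinted and nuclear noncoding RNAs were split. Meg3, Rian and H19, of imprinted regions, averaged 35.5 ± 9.44, 34.7 ± 4.65 and 22.1 ± 2.38 CPM in ovary and 6.73 ± 1.42, 3.48 ± 0.703 and 2.75 ± 0.770 CPM in kidney. Neat1, a nuclear RNA that builds paraspeckles, stood at 112, 203, 52.5 and 135 CPM in ovary and 724, 995, 1129.6 and 1131 CPM in kidney, and Snhg11 averaged 1.24 ± 0.573 and 110.4 ± 7.33 CPM. Ovary replicate 3 was the lowest library for both Neat1 and Malat1.

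Some genes were low for their known abundance where exons overlap or copies exist. Tagln, a smooth muscle gene with 61% of its exon length shared, reached 9.71 ± 1.24 TPM in ovary beside 1192 ± 219.8 TPM for Acta2. Fdps, with 77% shared, reached 30.1 ± 6.14 TPM beside 672 ± 119 TPM for Hmgcs1. Among genes of the mitochondrial genome, mt-Co1 reached 49292 ± 1099.9 TPM in kidney, and mt-Co2 and mt-Co3 370.0 ± 41.2 and 307 ± 34.5 TPM. The part of the counting in these levels was not tested. Ovgp1, an oviduct gene with 38% of its exon length shared, stood at 1.06, 24.1, 0.599 and 1.42 CPM in ovary replicates 1 to 4, high in replicate 2; without that library its log2 difference was -1.11 in place of 1.6.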
